A study of Mus musculus with 20 samples.

Results

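Axon guidance ligands and receptors were examined in cultured mouse cortical neurons after oxygen and glucose deprivation. The genes were taken by symbol from the 4 deposited tables: semaphorins, plexins, neuropilins, ephrins, Eph receptors, netrins, UNC5 receptors, Dcc, SLIT proteins and ROBO receptors. The symbols picked out 60 of the 14700 genes listed in at least 1 table. They were 19 semaphorins, 8 plexins, 2 neuropilins, 7 ephrins, 12 Eph receptors, 2 netrins, 4 UNC5 receptors, Dcc, 3 SLIT genes and 2 ROBO genes. Of the 60, 59 stood in all 4 tables, and Sema3b stood only in the table of the knockout cultures. All 60 symbols were matched to RefSeq genes of the mouse build GRCm38.p6.

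Guidance ligands steer the tips of growing axons and dendrites by attraction or repulsion, and in the cortex many stay on after the axon has arrived, where they act at synapses. Semaphorins signal through plexins, with neuropilins as co-receptors for most secreted class 3 semaphorins. Ephrins are membrane-bound and signal to Eph receptor kinases on the neighbouring cell, and also back into their own cell. Netrins act through Dcc and the UNC5 receptors, and SLIT proteins repel axons through ROBO receptors.

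The cells were primary neurons from embryonic day 15 cortex, grown for 7 days in Neurobasal with B27, 0.2 mM L-glutamine and antibiotics. WT cultures were compared with cultures lacking ciRS-7 (KO), a circular RNA whose gene is listed as Cdr1as. The strain C57BL/6N-Cdr1asem1Nikr is given for all 20 libraries, WT included. For 12 h the cells had either normoxia (N) in medium with 25 mM D-glucose and 0.2 mM sodium pyruvate, or oxygen and glucose deprivation (OGD) at 1% oxygen in medium without either supplement. N_WT, OGD_WT, N_KO and OGD_KO each had 5 libraries. The N and OGD libraries of 1 number come from the same numbered culture and carry 1 of 5 batch labels (1, 2, 3.1, 3.2 and 3.3). The labels do not say whether the cultures came from separate litters, so p-values measure only the spread that the deposited values hold between these libraries.

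The total of recovered counts per library ran from 7071506 to 16658618. Cdr1as had 5 to 16 counts per library in N_KO against 700 to 1365 in N_WT, and 2 to 14 in OGD_KO against 545 to 1912 in OGD_WT, so the genotype labels held in each library. All 12 neuron markers were measured, and their summed level in N_WT was 4879 to 6288 CPM, counts scaled to the library total. None of the 10 microglia markers stood in the tables. Deviations of libraries from their group means cancelled in part within each batch label, most in batches 1, 3.1 and 3.3. Over the 7225 genes whose mean log2 CPM reached 4, the mean deviation of batch 3.1 had an SD of 0.0257 across genes, where independent libraries of that spread would give 0.132. For batch 3.3 these values were 0.0307 and 0.137, for batch 1 0.0188 and 0.0586, for batch 2 0.0414 and 0.0726, and for batch 3.2 0.0323 and 0.0479. Single libraries of batches 1, 2 and 3.2 deviated by an SD of only 0.117, 0.103 and 0.0677, against 0.324 in batch 3.1 and 0.336 in batch 3.3. The tests take libraries as independent, so their p-values do not allow for this cancelling. Counts of calls are given for all 5 cultures per genotype and, beside them, for the 3 cultures per genotype of batches 3.1 and 3.3.

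In normoxic WT neurons the guidance genes covered a wide range of levels. Per kilobase of exon, the highest means were those of Epha5, the main ephrin-A receptor of forebrain neurons, at 33.2 ± 3.90 CPM per kilobase (SD, n = 5), Robo2 at 30.6 ± 2.28, and Efnb2, a transmembrane ephrin, at 30.2 ± 1.07. Their library ranges overlapped. Next came Efnb3 at 24.2 ± 3.51, Plxna1 at 23.2 ± 1.63 and Plxna2 at 22.4 ± 2.03, receptors for class 3 and class 6 semaphorins in the case of the plexins. The highest semaphorin was Sema6a, a transmembrane ligand of A-type plexins, at 16.1 ± 4.23. Dcc, the netrin receptor, stood at 7.13 ± 1.56. The lowest levels were those of Unc5b at 0.789 ± 0.207, Ephb4 at 0.684 ± 0.171 and Sema3d at 0.652 ± 0.154.

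**Figure D1:**
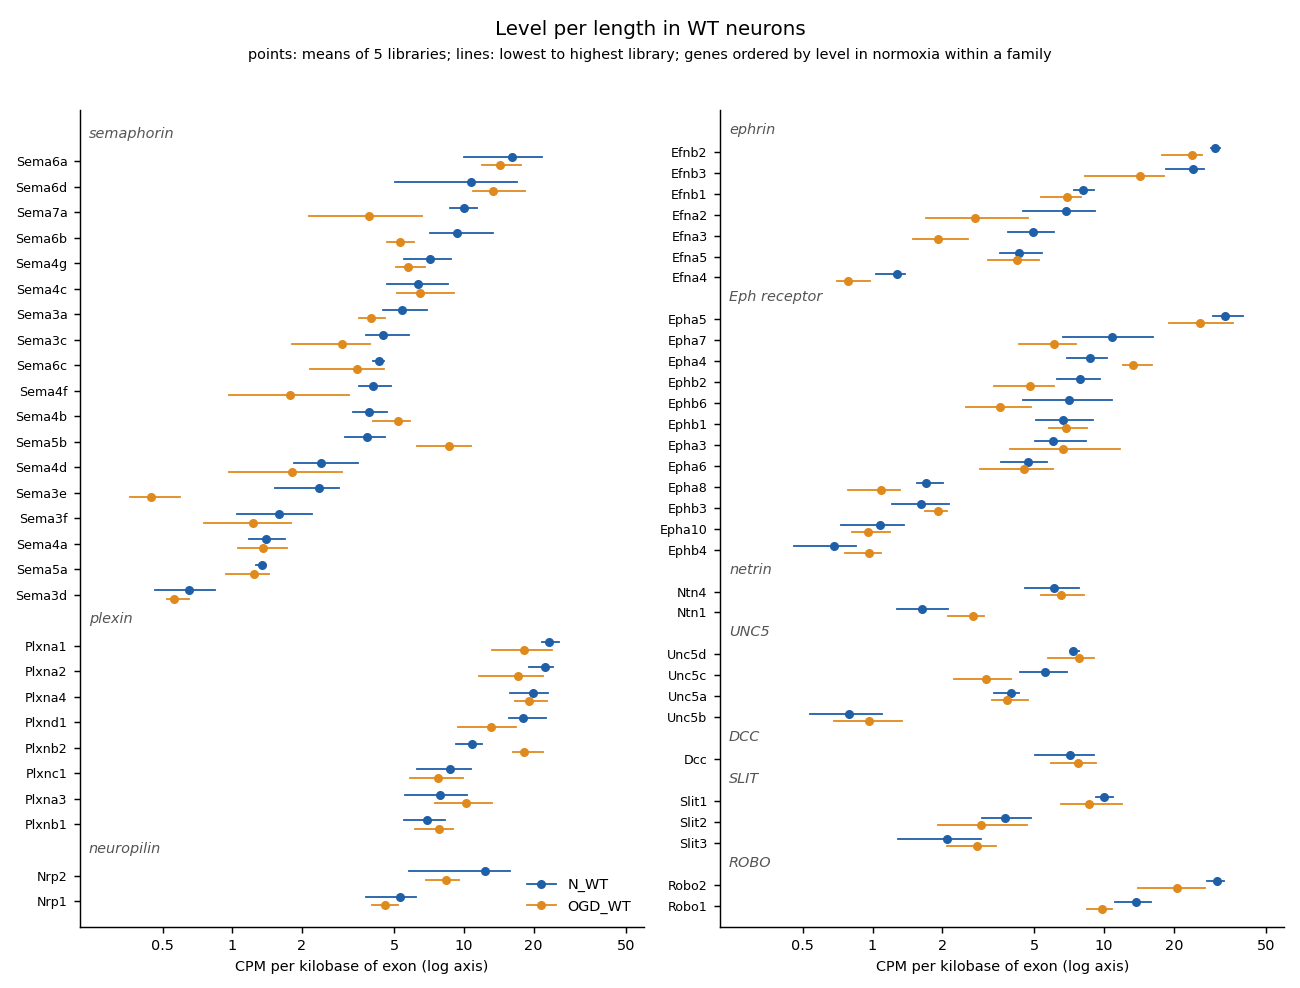
Level of each gene in WT neurons, in CPM per kilobase of exon on a log axis, as the mean of 5 libraries (points) with the lowest and highest library (lines), in normoxia (N_WT) and after OGD (OGD_WT). Epha5, Robo2 and Efnb2 lead in normoxia, Sema3e falls below all other genes shown after OGD, and Sema5b moves up among the semaphorins.

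Under OGD more guidance genes fell than rose in WT neurons. The largest falls were those of the semaphorins Sema3e, Sema7a and Sema4f and of the ephrins Efna2 and Efna3, and the largest rises those of Sema5b, Plxnb2 and Ntn1. Of 59 genes tested, 6 were called higher (10.2%) and 21 lower (35.6%) by limma at an adjusted p under 0.05, adjusted over all genes of the table. Of all 14235 genes in the table, 21.6% were called higher and 22.8% lower. The median log2 fold change of the guidance genes was -0.25, against -0.03 over all genes. In 17 of 59 genes (28.8%) the OGD_WT and N_WT libraries did not overlap, close to the 26.9% over all genes. In the 3 WT cultures of batches 3.1 and 3.3 limma called 1 guidance gene higher and 8 lower, against 8.01% and 8.93% of all genes. Scaling to total counts in place of the authors' scaling moved the median of all genes in WT to -0.29. On that scale 3 guidance genes were called higher and 35 lower, against 11.5% and 40.5% of all genes, and 8 guidance genes with no call changed sign.

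KO neurons showed a similar set of changes. Of 60 genes tested in KO, 6 were called higher (10%) and 18 lower (30%) by limma, where 21% and 19.9% of all 14375 genes were called. The median was -0.27, against 0.00 over all genes. The groups did not overlap for 18 of 60 genes (30%), against 25.8% over all genes. In the 3 KO cultures of batches 3.1 and 3.3 limma called 1 gene higher and 7 lower, against 8.28% and 8.01% of all genes. Scaled to total counts the median of all genes was -0.27, 2 guidance genes were called higher and 34 lower, against 10.4% and 37% of all genes, and 11 guidance genes with no call changed sign.

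**Figure D2:**
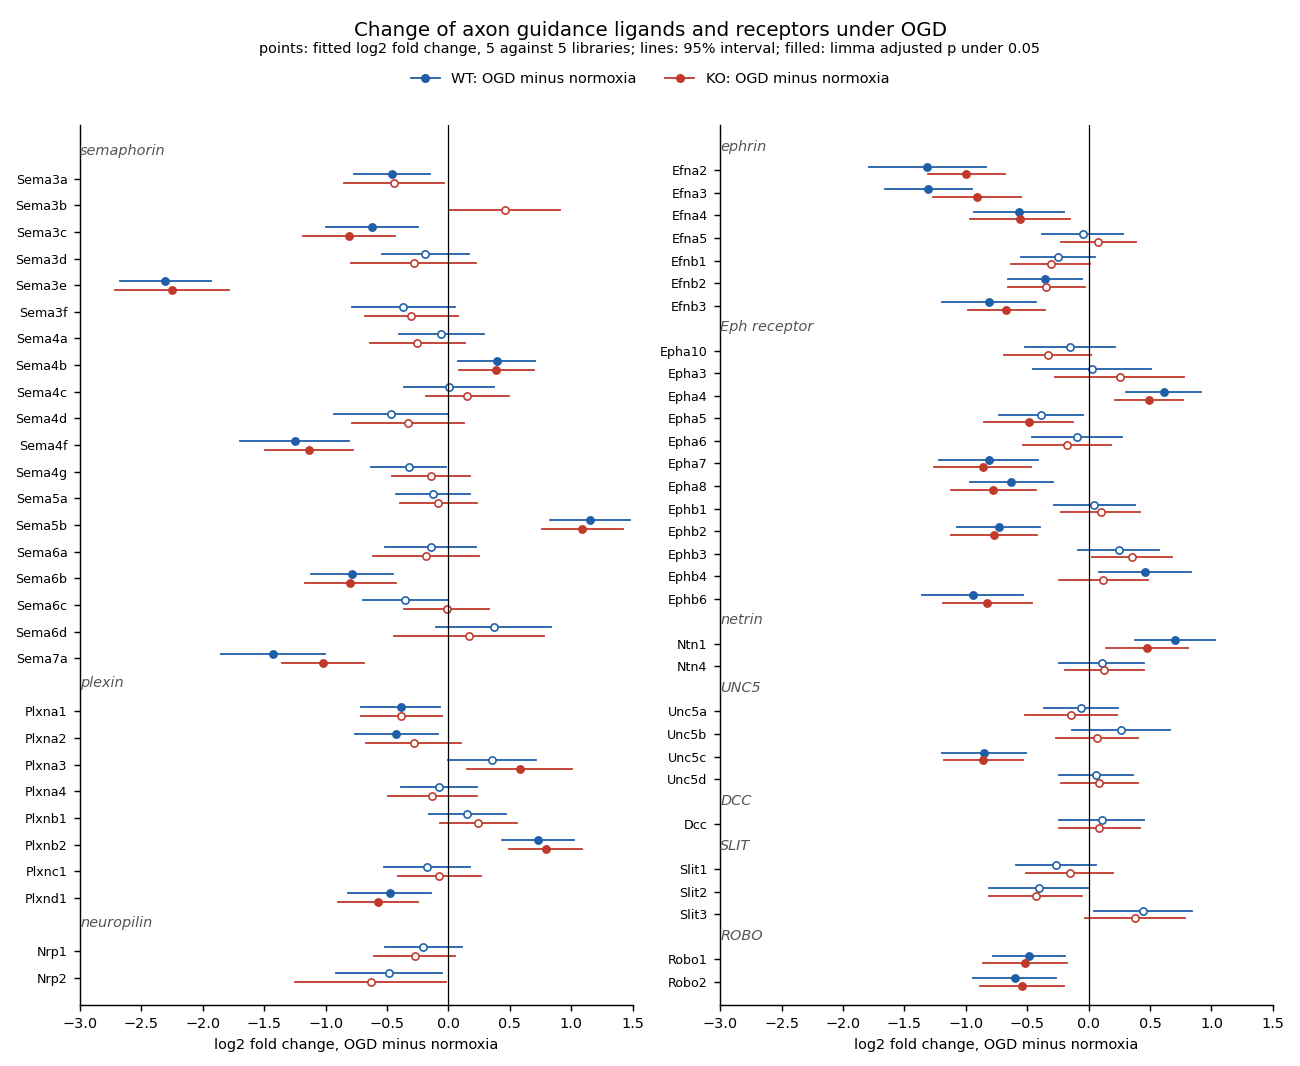
Fitted log2 fold change of each gene under OGD, OGD minus normoxia, in WT and KO cultures (5 against 5 libraries each), with 95% intervals that take libraries as independent; filled points have a limma adjusted p under 0.05. Most filled points lie left of 0, with Sema3e furthest, and Sema5b lies furthest right.

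Among the ligands, Sema3e changed most. It is a secreted class 3 semaphorin that binds plexin D1 directly, without a neuropilin, and lies at chr5:14025276-14256689. In N_WT its log2 CPM was 3.89, 4.47, 4.74, 4.51 and 4.79 in replicates 1 to 5, and in OGD_WT 2.57, 2.00, 1.92, 2.25 and 2.13. Every OGD_WT library lay below every N_WT library, from 34 to 85 recovered counts against 206 to 319. The log2 fold change was -2.30 (SE 0.18, limma adjusted p 2.91e-09), a 4.94-fold lower level. In N_KO Sema3e stood at 3.66, 4.21, 4.06, 4.74 and 4.49, and in OGD_KO at 2.54, 1.29, 2.21, 2.07 and 1.79, again without overlap. The change in KO was -2.25 (SE 0.22, limma adjusted p 4.92e-07). In the 3 cultures of batches 3.1 and 3.3 Sema3e fell by 2.46 in WT and by 2.76 in KO, with limma adjusted p 3.53e-13 and 6.16e-17. With so few libraries these p rest mainly on the spread that limma shares across genes. They are no stronger evidence than the p from all 5 cultures.

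Sema7a fell as well. It is a semaphorin anchored to the membrane by a GPI tail that acts through integrins and plexin C1, at chr9:57939596-57962865. The N_WT values were 4.88, 5.23, 5.12, 4.91 and 5.26 log2 CPM, and the OGD_WT values 3.73, 2.92, 3.71, 3.41 and 4.49. In N_KO the values were 4.85, 4.46, 4.87, 4.87 and 5.34, and in OGD_KO 4.06, 3.63, 3.84, 3.85 and 3.90. The groups did not overlap in either genotype, although OGD_WT replicate 5 stood well above the other OGD_WT libraries. The log2 fold change of Sema7a was -1.43 in WT (SE 0.21, limma adjusted p 1.21e-05) and -1.02 in KO (SE 0.16, limma adjusted p 6.3e-05).

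Sema4f, a transmembrane class 4 semaphorin at chr6:82911884-82939769, showed the same direction. It stood at 4.34, 4.40, 4.54, 4.73 and 4.27 log2 CPM in N_WT and at 2.96, 3.21, 3.27, 2.46 and 4.12 in OGD_WT. In N_KO it was at 4.55, 3.93, 4.48, 4.35 and 4.54, and in OGD_KO at 3.40, 2.79, 3.0, 3.5 and 3.49. OGD lay below normoxia without overlap in both genotypes. Its change was -1.25 in WT (SE 0.21, limma adjusted p 7.94e-05) and -1.14 in KO (SE 0.17, limma adjusted p 4.91e-05). Sema6b, a transmembrane class 6 semaphorin at chr17:56123085-56140343, fell by 0.78 in WT (SE 0.16, limma adjusted p 0.000529) and by 0.80 in KO (SE 0.18, limma adjusted p 0.00144). Its values were 5.25, 4.99, 5.18, 5.76 and 4.86 in N_WT against 4.35, 4.25, 4.43, 4.46 and 4.64 in OGD_WT, and 5.19, 5.15, 5.28, 4.83 and 5.32 in N_KO against 4.43, 4.78, 4.28, 4.56 and 3.73 in OGD_KO. The Sema6b groups did not overlap, but in batches 3.1 and 3.3 alone, with -0.76 and -0.75, it was not called in either genotype (limma adjusted p 0.0687 and 0.076).

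Sema5b moved the other way. It is a transmembrane class 5 semaphorin with thrombospondin repeats, known as a repellent that removes synapses, and lies at chr16:35541154-35664261. Its log2 CPM was 5.05, 4.90, 4.70, 4.48 and 4.75 in N_WT and 5.95, 6.26, 6.05, 5.88 and 5.51 in OGD_WT. In N_KO it was 4.75, 5.18, 4.81, 4.88 and 4.5, and in OGD_KO 5.70, 5.64, 5.90, 6.19 and 6.13. All OGD libraries lay above all normoxic libraries of their genotype. The log2 fold change of Sema5b was 1.15 in WT (SE 0.16, limma adjusted p 6.43e-06) and 1.09 in KO (SE 0.16, limma adjusted p 3.15e-05), a 2.22-fold and 2.13-fold higher level. Sema5b was the 1 guidance gene called higher in the cultures of batches 3.1 and 3.3, in WT (limma adjusted p 0.00232) and in KO (limma adjusted p 0.00386). Per kilobase it stood at 3.80 ± 0.567 CPM in N_WT, 44th of 59 genes, and at 8.63 ± 1.59 (SD, n = 5) in OGD_WT, 15th.

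The other semaphorins moved less. Sema3c fell in both genotypes (-0.62 and -0.81 in WT and KO, limma adjusted p 0.00771 and 0.0015), and in batches 3.1 and 3.3 alone was called in KO and not in WT (limma adjusted p 0.013 and 0.0881). Sema3a, the classic collapsing factor for growth cones, was called lower in WT (-0.46, limma adjusted p 0.016) and not in KO, where its value was -0.44 (limma adjusted p 0.0777). Sema4b was called higher in both, at 0.39 each (limma adjusted p 0.04 and 0.0404); the KO call was lost with the culture as a block (limma adjusted p 0.0831), and neither was called when scaled to total counts (limma adjusted p 0.564 and 0.632). No other semaphorin was called by limma, and their log2 fold changes lay between -0.47 for Sema4d and 0.37 for Sema6d in WT. With the culture as a block Sema4d was called lower in WT (limma adjusted p 0.0314). Sema3b, tested in KO only, was at 5 to 15 counts per library in OGD_KO and 5 to 10 in N_KO, with a log2 fold change of 0.46 (limma adjusted p 0.0966).

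Sema3e, Sema3a and Sema3d lie in 1 stretch of chromosome 5, with 421790 bases between Sema3a and Sema3e. The promoter windows of the genes with the largest fall and the largest rise are shown. That of Epha4 was picked because it is a called rise whose window holds the letters ACGTG, a hypoxia-response core. Both windows of Plxnb2, a larger rise, hold no ACGTG. RefSeq windows run from 250 bases before to 50 after a transcription start, and 50 of the 60 genes had one. The core ACGTG, which the opposite strand reads as the letters CACGT, is 1 form of the letters bound by hypoxia-inducible factors. Only ACGTG and the longer ACGTGC were searched, on both strands, and ACGTG is in capitals. It overlaps the E-box letters CACGTG that many basic helix-loop-helix factors bind. Sema3e on the plus strand at chr5:14025026-14025325, Sema5b on the plus strand at chr16:35541112-35541411 and Epha4 on the minus strand at chr1:77515039-77515338 read, 5′ to 3′:
Sema3e: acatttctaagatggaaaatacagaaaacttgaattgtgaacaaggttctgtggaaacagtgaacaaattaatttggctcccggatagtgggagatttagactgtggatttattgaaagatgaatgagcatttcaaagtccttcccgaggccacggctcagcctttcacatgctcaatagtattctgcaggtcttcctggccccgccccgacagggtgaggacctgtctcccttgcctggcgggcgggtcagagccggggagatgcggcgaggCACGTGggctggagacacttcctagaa
Sema5b: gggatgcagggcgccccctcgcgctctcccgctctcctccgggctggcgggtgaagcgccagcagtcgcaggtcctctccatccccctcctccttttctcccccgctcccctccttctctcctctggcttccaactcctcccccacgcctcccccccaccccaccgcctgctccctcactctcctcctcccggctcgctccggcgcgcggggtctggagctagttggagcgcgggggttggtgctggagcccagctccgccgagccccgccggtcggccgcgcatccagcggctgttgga
Epha4: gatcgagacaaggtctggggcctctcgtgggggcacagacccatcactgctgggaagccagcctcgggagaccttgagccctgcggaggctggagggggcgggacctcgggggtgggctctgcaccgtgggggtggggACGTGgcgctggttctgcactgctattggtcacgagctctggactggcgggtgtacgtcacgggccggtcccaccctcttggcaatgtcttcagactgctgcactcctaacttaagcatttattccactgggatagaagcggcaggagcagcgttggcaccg
The Sema3e window holds the letters once as the palindrome CACGTG, so they read on both strands, and ACGTGC stands there too, and the Epha4 window holds ACGTG once. The Sema5b window holds no ACGTG on either strand, and other forms of the core were not searched. Of all 32851 promoter windows, 19.6% hold the core, and of the 65 windows of guidance genes, 20%. Counted by gene, a window with the core was found for 5886 of all 27025 genes and for 12 of the 50 guidance genes with a window. Among genes called in both genotypes, a window with the core was found for 2 of the 4 risers and 6 of the 16 fallers that have a window, and among genes called in neither for 4 of 24. The longer form ACGTGC stood in 5.91% of all windows. A match of letters is a description only.

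Of the 8 plexins, limma called 1 higher and 3 lower in WT, and 2 higher and 1 lower in KO. The shares of all genes were 21.6% and 22.8% in WT, and 21% and 19.9% in KO. Plxnb2, a receptor for class 4 semaphorins at chr15:89155546-89182018, was the plexin with the largest change. It stood at 6.50, 6.57, 6.38, 6.19 and 6.43 log2 CPM in N_WT and at 7.14, 7.42, 7.15, 6.98 and 7.01 in OGD_WT. In N_KO the values were 6.38, 6.59, 6.31, 6.30 and 6.33, and in OGD_KO 7.10, 6.88, 7.23, 7.45 and 7.20. OGD lay above normoxia without overlap in both genotypes. The log2 fold change was 0.73 in WT (SE 0.14, limma adjusted p 0.00028) and 0.79 in KO (SE 0.14, limma adjusted p 0.000267). In batches 3.1 and 3.3 alone the sizes were 0.74 and 0.77, and Plxnb2 was not called (limma adjusted p 0.0858 and 0.0863).

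Plxnd1, the receptor of Sema3e, fell in both genotypes, by 0.48 in WT and by 0.57 in KO (limma adjusted p 0.0198 and 0.0065), with overlapping libraries. In batches 3.1 and 3.3 alone it had -0.44 and -0.54 and was not called (limma adjusted p 0.365 and 0.267). Plxna1 was called lower in WT (-0.39, limma adjusted p 0.0458) and had -0.38 in KO (limma adjusted p 0.0592). Plxna2 was called lower in WT (-0.42, limma adjusted p 0.0408) and had -0.28 in KO (limma adjusted p 0.233). Plxna3 was called higher in KO (0.58, limma adjusted p 0.0291) and had 0.35 in WT (limma adjusted p 0.102, or 0.0385 with the culture as a block). Scaled to total counts Plxna3 was not called in KO (limma adjusted p 0.228). Plxna4, Plxnb1 and Plxnc1 were not called. Neither neuropilin was called: Nrp2 had -0.49 in WT and -0.63 in KO (limma adjusted p 0.0612 and 0.0914, or 0.04 and 0.118 with the culture as a block), and Nrp1 -0.21 and -0.28.

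All 7 ephrins had lower fitted values under OGD in WT, where 5 were called lower and none higher. In KO 6 of 7 had lower fitted values, and 4 were called lower and none higher. Over all genes 22.8% were called lower in WT and 19.9% in KO. Efna2, Efna3, Efna4 and Efnb3 fell in both genotypes. Efna2, a GPI-anchored ephrin at chr10:80179482-80190010, stood at 3.73, 4.04, 4.02, 4.33 and 3.32 log2 CPM in N_WT and 2.86, 2.03, 2.54, 2.04 and 3.40 in OGD_WT. In N_KO it was at 3.82, 3.63, 3.81, 3.91 and 3.90, and in OGD_KO at 2.83, 2.65, 2.84, 3.21 and 2.54. The groups overlapped in WT, through replicate 5 of both, and did not overlap in KO. Its change was -1.32 in WT (SE 0.23, limma adjusted p 0.000101) and -1.0 in KO (SE 0.15, limma adjusted p 4.95e-05).

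Efna3, another GPI-anchored ephrin, lies at chr3:89313899-89322939. Its values were 3.60, 3.96, 3.57, 3.30 and 3.76 in N_WT and 2.21, 2.03, 2.45, 2.21 and 2.76 in OGD_WT. In N_KO they were 3.57, 3.52, 3.46, 2.92 and 3.42, and in OGD_KO 2.42, 2.15, 2.34, 2.55 and 2.88. No OGD library reached a normoxic library of its genotype, with the N_KO library at 2.92 close to the OGD_KO library at 2.88. The change of Efna3 was -1.31 in WT (SE 0.17, limma adjusted p 3.47e-06) and -0.91 in KO (SE 0.17, limma adjusted p 0.000347). In KO cultures of batches 3.1 and 3.3 alone it was -0.76 and not called (limma adjusted p 0.0697). Efna4 lies 10453 bases from Efna3 and had -0.56 in both genotypes (limma adjusted p 0.0127 and 0.0277), and was not called in batches 3.1 and 3.3 alone (limma adjusted p 0.17 and 0.168). With the culture as a block the Efna4 call in KO was lost (limma adjusted p 0.0638).

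Efnb3, a transmembrane ephrin of the corticospinal midline at chr11:69554092-69561150, had the second highest ephrin level per kilobase. It stood at 6.36, 6.46, 6.24, 6.45 and 5.91 log2 CPM in N_WT and at 5.40, 4.75, 5.52, 5.80 and 5.89 in OGD_WT. In N_KO it was at 6.42, 6.00, 6.26, 6.39 and 6.24, and in OGD_KO at 5.41, 5.38, 5.57, 5.99 and 5.59. The groups did not overlap but nearly touched in both genotypes. Efnb3 fell by 0.81 in WT (SE 0.18, limma adjusted p 0.00126) and by 0.67 in KO (SE 0.15, limma adjusted p 0.00149), and was not called in batches 3.1 and 3.3 alone, at -0.79 and -0.56 (limma adjusted p 0.0563 and 0.234). Efnb2 was called lower in WT (-0.36, limma adjusted p 0.0493) and had -0.34 in KO (limma adjusted p 0.0728). Efnb1 had -0.25 and -0.31, and Efna5 -0.05 in WT and 0.08 in KO, none of them called.

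Of the 12 Eph receptors, 2 were called higher and 4 lower in WT, and 1 higher and 5 lower in KO. Over all genes 21.6% were called higher and 22.8% lower in WT, and 21% and 19.9% in KO. Ephb6, a family member without kinase activity, lies at chr6:41603834-41620509. Its values were 4.59, 4.13, 4.72, 4.74 and 5.39 log2 CPM in N_WT, 3.58, 4.23, 3.82, 3.88 and 3.34 in OGD_WT, 4.79, 4.34, 4.58, 4.68 and 4.40 in N_KO, and 3.74, 3.22, 3.62, 3.81 and 4.26 in OGD_KO. Replicate 2 overlapped in WT, and no libraries overlapped in KO. Ephb6 fell by 0.94 in WT (SE 0.20, limma adjusted p 0.000614) and by 0.83 in KO (SE 0.17, limma adjusted p 0.000913). In KO cultures of batches 3.1 and 3.3 alone it had -0.71 and was not called (limma adjusted p 0.0933). Epha7 (-0.81 and -0.86), Ephb2 (-0.73 and -0.77), a receptor found at glutamatergic synapses, and Epha8 (-0.63 and -0.78) were called lower in both genotypes, with limma adjusted p between 0.00104 and 0.00356. In batches 3.1 and 3.3 alone Epha7 was called in both genotypes (limma adjusted p 0.0496 and 0.0369), Ephb2 in neither (0.0805 and 0.108) and Epha8 in neither (0.139 and 0.129). Ephb2 and Epha8 are neighbours on chromosome 4, with 93092 bases between them. Epha5 was called lower in KO (-0.49, limma adjusted p 0.0287) and had -0.39 in WT (limma adjusted p 0.0606). With the culture as a block this was turned round, with a call in WT and none in KO (limma adjusted p 0.0372 and 0.0616).

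Epha4, which binds ephrins of both classes and acts at dendritic spines and on astrocyte processes, rose by the authors' scaling. It lies at chr1:77367182-77515107. Its values were 6.10, 6.2, 6.17, 5.82 and 6.40 log2 CPM in N_WT and 6.71, 7.04, 6.74, 6.61 and 6.66 in OGD_WT. In N_KO they were 6.23, 6.2, 6.04, 5.88 and 6.22, and in OGD_KO 6.58, 6.66, 6.64, 6.48 and 6.66. The OGD libraries lay above the normoxic ones without overlap. The change was 0.61 in WT (SE 0.15, limma adjusted p 0.00187) and 0.49 in KO (SE 0.13, limma adjusted p 0.00645). In batches 3.1 and 3.3 alone Epha4 had 0.63 and 0.50 and was not called (limma adjusted p 0.159 and 0.303). It was not called either when scaled to total counts, where it had 0.33 and 0.20 (limma adjusted p 0.077 and 0.268). Ephb4, the partner of ephrin-B2 in vessels, was called higher in WT (0.46, limma adjusted p 0.0435) and had 0.12 in KO (limma adjusted p 0.603). The WT call of Ephb4 was lost with the culture as a block (limma adjusted p 0.0779).

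**Figure D3:**
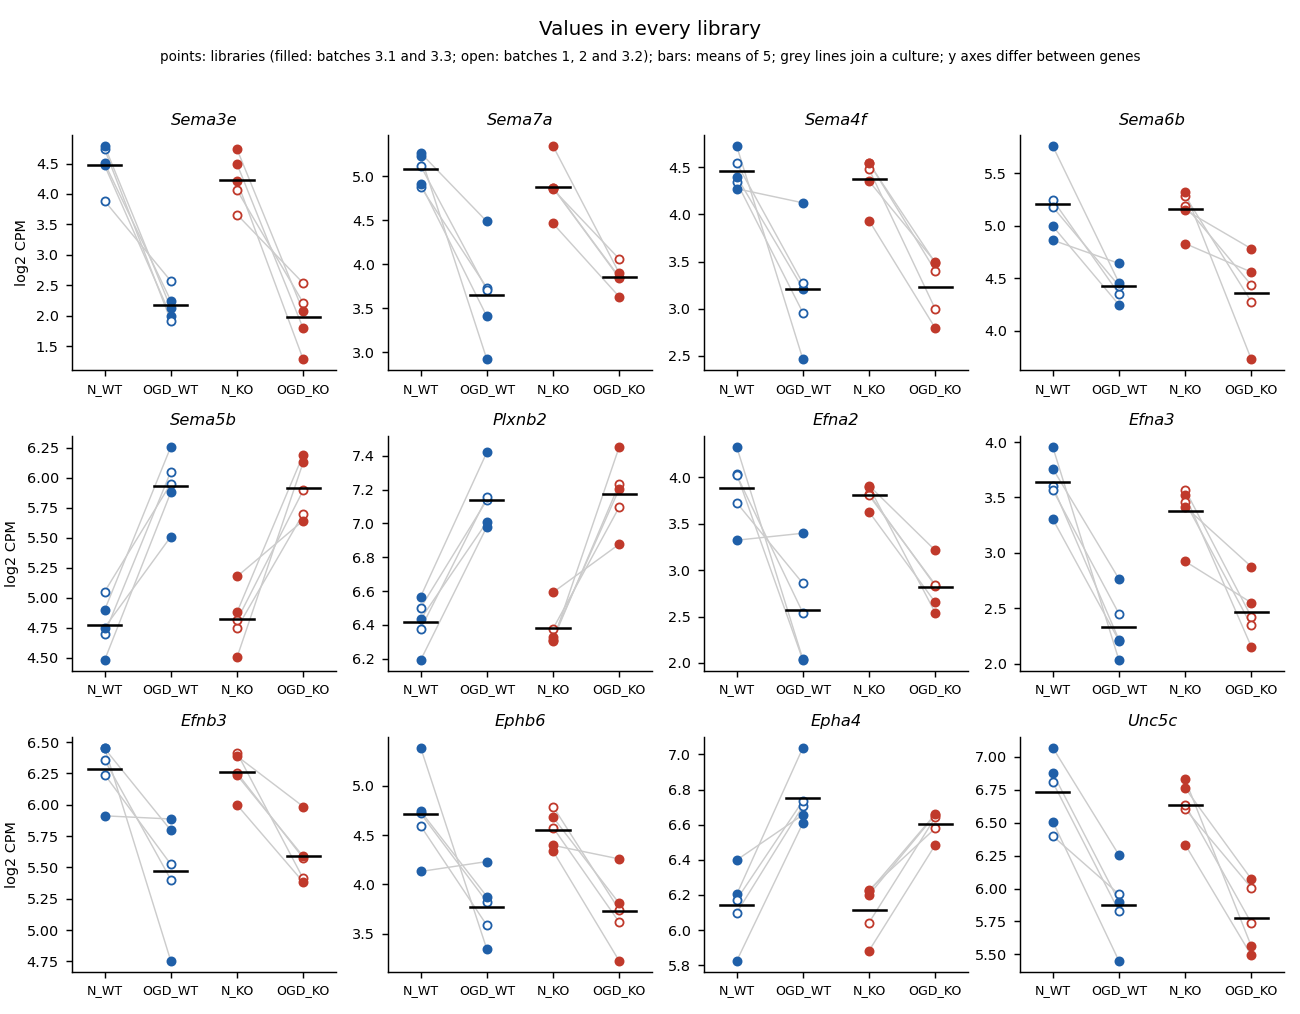
Log2 CPM of the 12 genes named by rule in every library of N_WT, OGD_WT, N_KO and OGD_KO (points; filled for batches 3.1 and 3.3), with group means (bars) and lines joining the libraries of a culture. Sema3e separates the conditions most widely, and OGD_WT replicate 5 lies above the other OGD_WT libraries for Sema7a, Sema4f and Efna2.

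In the netrin pathway the secreted ligand Ntn1 rose while 1 of its repulsive receptors fell. Ntn1 had 0.70 in WT (SE 0.16, limma adjusted p 0.00108) and 0.48 in KO (SE 0.16, limma adjusted p 0.0222), with overlapping libraries, and was not called in batches 3.1 and 3.3 alone (limma adjusted p 0.101 and 0.391). Scaled to total counts Ntn1 was called in WT and not in KO (limma adjusted p 0.029 and 0.356). Unc5c, a netrin receptor for repulsion at chr3:141465564-141834924, stood at 6.40, 6.51, 6.81, 7.07 and 6.88 log2 CPM in N_WT and at 5.96, 5.45, 5.83, 6.25 and 5.90 in OGD_WT. In N_KO it was at 6.60, 6.33, 6.64, 6.76 and 6.83, and in OGD_KO at 6.01, 5.49, 5.74, 6.07 and 5.56. The groups did not overlap. Unc5c fell by 0.85 in WT (SE 0.17, limma adjusted p 0.000289) and by 0.86 in KO (SE 0.15, limma adjusted p 0.000243), and was called also in batches 3.1 and 3.3 alone (limma adjusted p 0.0192 and 0.0259). Dcc, the attractive receptor, had 0.11 in WT and 0.09 in KO (limma adjusted p 0.628 and 0.687). Unc5a, Unc5b, Unc5d and Ntn4 were not called, with log2 fold changes from -0.14 to 0.27.

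Both ROBO receptors fell, with non-overlapping libraries in both genotypes. Over all genes 22.8% were called lower in WT and 19.9% in KO, and the groups did not overlap for 26.9% and 25.8%. Robo1 fell by 0.49 in WT and by 0.52 in KO (limma adjusted p 0.00866 and 0.0166), and Robo2 by 0.60 and by 0.54 (limma adjusted p 0.00503 and 0.0121). Neither was called in batches 3.1 and 3.3 alone, where the smallest limma adjusted p of the pair was 0.17. Their ligands were not called. Slit1 had -0.27 and -0.15, Slit2 -0.41 and -0.43, and Slit3 0.44 and 0.38 in WT and KO.

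For each gene whose groups did not overlap, the exact permutation p is fixed in advance at 0.00794, the smallest that 5 against 5 libraries allow. It restates the non-overlap and adds no evidence to it. The values of 1 library set the closeness of several groups. OGD_WT replicate 5 was the highest of its group for 6 of the 9 named genes that fell. It also had the lowest summed level of 7 hypoxia-induced genes, 466 CPM against 1054 to 1824 in the other OGD_WT libraries. OGD_WT replicate 2 was the lowest for 6 of these 9 genes, the highest for all 3 named genes that rose, and had the highest hypoxia sum. The KO libraries did not repeat this. OGD_KO replicate 2 was the lowest for 7 of the 9 genes but had the lowest hypoxia sum of its group, 755 CPM. OGD_KO replicate 5 had the highest sum, 1074 CPM, and was the highest for 2 of the 9 and the lowest for 2. A link of the hypoxia sums to the guidance genes was not tested. Without OGD_WT replicate 5 limma called 4 guidance genes higher and 25 lower in WT. Over the fits that left out 1 replicate, it called 5250 to 6635 of all 14235 genes in WT. The share of all genes in the fit without OGD_WT replicate 5 is not given, so its counts do not set the guidance genes apart.

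Markers of astrocytes and of neurons also changed under OGD. Over all genes limma called 21.6% higher and 22.8% lower in WT, and 21% and 19.9% in KO. Of 9 measured astrocyte markers, limma called 6 higher and 1 lower in WT and 5 higher in KO. Their summed level was 1142 to 1431 CPM in N_WT and 1868 to 2316 in OGD_WT, and 908 to 1604 in N_KO and 1546 to 2396 in OGD_KO. Of the 12 neuron markers 6 fell in WT and 7 in KO, and none rose. The neuron sum was 4879 to 6288 CPM in N_WT and 3114 to 6049 in OGD_WT, and 5513 to 5674 in N_KO and 3336 to 4769 in OGD_KO. All 8 proliferation genes rose in both genotypes, with summed levels of 462 to 606 CPM in N_WT and 863 to 1468 in OGD_WT. Of 8 oligodendrocyte lineage markers 1 rose and 2 fell in WT and 3 rose in KO, and of 3 endothelial and mural markers 2 rose and 1 fell in WT and 2 rose in KO. Of 6 fibroblast markers 2 were measured in WT and 4 in KO, and limma called 0 in each. Their part in the changes of the guidance genes was not tested, and in these bulk cultures fewer cells of a type cannot be told apart from less RNA per cell.

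Other genes of the guidance pathways, from a list of 70 with 68 measured, also fell more often than they rose. In WT limma called 10 of the 68 higher and 20 lower, against 21.6% and 22.8% of all genes, with a median log2 fold change of -0.15. In KO it called 7 higher and 19 lower, against 21% and 19.9% of all genes, with a median of -0.14. In batches 3.1 and 3.3 alone the counts were 1 and 4 in WT, against 8.01% and 8.93% of all genes. There the KO counts were 2 and 5, against 8.28% and 8.01%. Scaled to total counts they were 3 and 38 in WT, against 11.5% and 40.5% of all genes. On that scale the KO counts were 3 and 34, against 10.4% and 37%. The largest fall was that of Rtn4r, the Nogo receptor, at -1.28 in WT and -1.24 in KO (limma adjusted p 1.77e-05 and 0.000272). Flrt2, a ligand of UNC5 receptors, had -1.17 and -0.91 (limma adjusted p 6.4e-06 and 0.000198), and Chl1, an adhesion molecule of the L1 family, -0.87 and -1.01. The hypoxia-induced genes used as a check rose in 8 of 8 cases in each genotype, with medians of 2.40 in WT and 1.90 in KO.

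The responses of the guidance genes in WT and KO were set side by side, since those comparisons share no library. Of 59 genes in both, 22 (37.3%) were called in both with the same direction, 5 higher and 17 lower. Of all 14097 genes in both tables, 35.8% were called in both with the same direction, 18.0% higher and 17.9% lower. A further 5 were called in WT only, namely Efnb2, Ephb4, Plxna1, Plxna2 and Sema3a, and 2 in KO only, Epha5 and Plxna3. The fitted changes had the same sign in 58 of 59 genes, the exception being Efna5, against 90.6% of all genes. Across these 59 genes, Pearson's r was 0.967 and Spearman's rho 0.968, as a description of genes that share libraries and batch labels, and over all genes they were 0.943 and 0.943. In batches 3.1 and 3.3 alone, 7 genes were called in both genotypes: Sema5b was higher, and Sema3e, Sema7a, Sema4f, Efna2, Epha7 and Unc5c were lower. The matching share of all genes was not computed, so this count does not set the guidance genes apart.

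**Figure D4:**
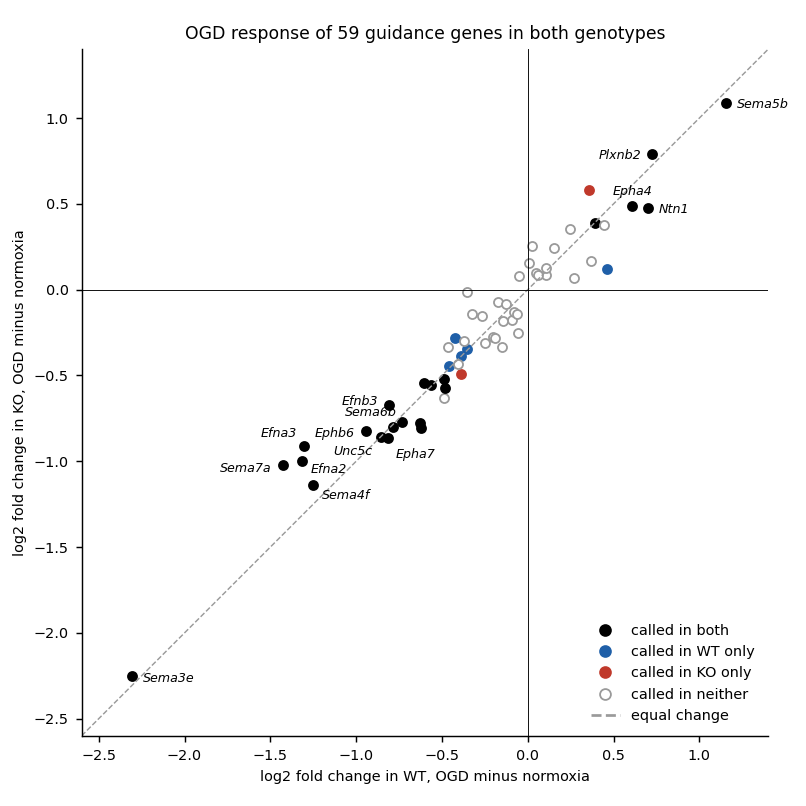
Log2 fold change under OGD in KO against that in WT for 59 genes (points), coloured by the comparison in which limma called them, with the line of equal change. The points follow the line from Sema3e at -2.30 and -2.25 to Sema5b at 1.15 and 1.09.

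A model over all 20 libraries with an interaction term compared the response of KO with that of WT. Limma called 0 of the 59 guidance genes and 0% of 13688 genes. An unadjusted p under 0.05 was found for 0 guidance genes, against 99 of the 13688 genes. The latter is below 1 in 20 of genes, so 0 of 59 does not set the guidance genes apart. The smallest unadjusted p was that of Efna3 (KO response minus WT response 0.38, SE 0.27, limma p 0.165), followed by Ephb4 (-0.38) and Sema7a (0.39). The adjusted p of each was 1. The 95% interval of the difference reached 0.55 log2 units to either side at the median guidance gene, with a range over genes from 0.42 to 0.92.

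No guidance gene differed between KO and WT beyond the spread between libraries by limma. In normoxia limma called 0 of 59 guidance genes and 0.0353% of all 14152 genes, and under OGD 0 of 59 and 0.0282% of all 14185 genes. No guidance gene had an unadjusted p under 0.05 in either condition. Of all genes, 256 of 14152 in normoxia and 253 of 14185 under OGD had one. Both are below 1 in 20 of genes, so 0 of 59 does not set the guidance genes apart. The medians of the guidance genes were 0.00 and -0.00. The lowest and highest 95% bounds over the 59 genes were -0.62 for Sema3e and 0.70 for Nrp2 in normoxia, and -0.68 for Sema6d and 0.75 for Efna2 under OGD. The interval reached 0.32 to either side at the median gene in normoxia and 0.39 under OGD.

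The genes with the smallest p by genotype in normoxia were Efna3 (-0.23, SE 0.16), Unc5b, a netrin receptor also known in vessels (0.24, SE 0.17), and Nrp2 (0.24, SE 0.22). In the table that compares genotypes, Efna3 stood at 3.71, 3.66, 3.61, 3.07 and 3.55 log2 CPM in N_KO and at 3.71, 4.07, 3.69, 3.41 and 3.87 in N_WT. Unc5b stood at 2.90, 2.66, 2.67, 2.94 and 2.55 against 2.99, 2.01, 2.36, 2.58 and 2.57. Nrp2, a neuropilin for Sema3c and Sema3f, stood at 7.54, 7.70, 7.49, 7.06 and 7.70 against 7.19, 7.63, 7.49, 7.70 and 6.26, and N_WT replicate 5 was its lowest library. All 3 overlapped, with exact permutation p of 0.198, 0.222 and 0.548. Without that library Nrp2 had -0.01.

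Under OGD the smallest p by genotype were those of Epha10 (-0.20, SE 0.16), Ephb4 (-0.19, SE 0.16) and Efna5 (0.20, SE 0.16). Epha10, a kinase-inactive receptor, stood at 2.70, 2.67, 2.32, 2.28 and 2.52 in OGD_KO and 2.50, 2.71, 2.58, 3.02 and 2.68 in OGD_WT. Ephb4 stood at 1.89, 1.75, 2.11, 1.95 and 1.95 against 2.17, 2.29, 1.82, 2.21 and 2.15, and Efna5 at 4.12, 4.07, 4.29, 4.46 and 3.81 against 4.12, 4.27, 3.86, 3.90 and 3.57. The libraries overlapped for each, with exact permutation p of 0.151, 0.103 and 0.254.

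**Figure D5:**
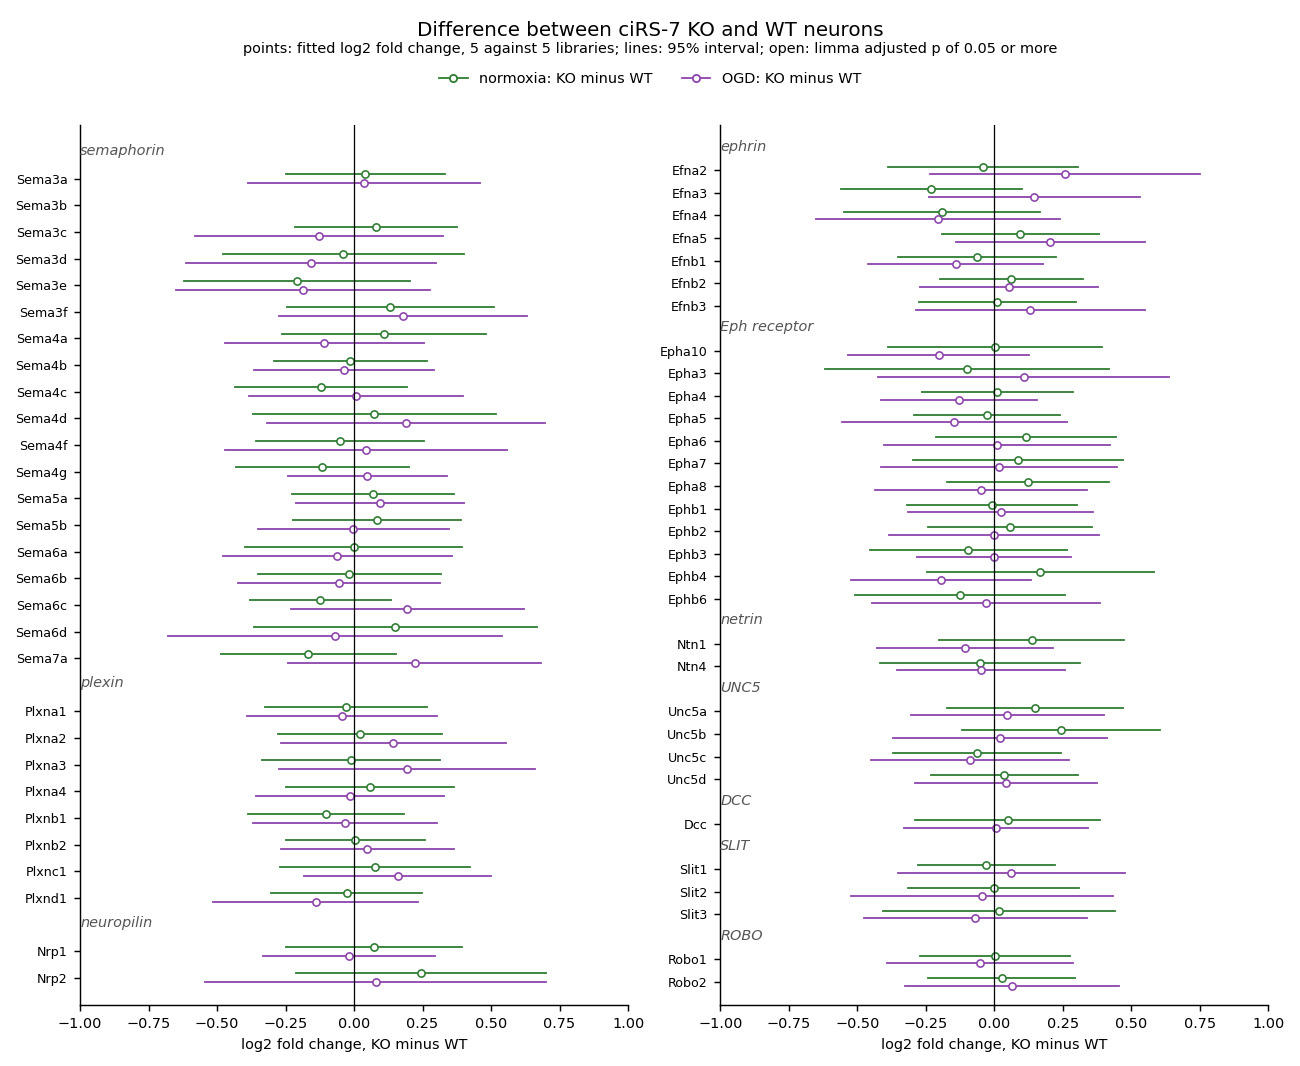
Fitted log2 fold change of each gene between KO and WT neurons, KO minus WT, in normoxia and under OGD (5 against 5 libraries each), with 95% intervals. All intervals cross 0, and every point is open because no gene had a limma adjusted p under 0.05.

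Within groups the guidance genes varied about as much as other genes. Their median SD between the 5 libraries was 0.24 log2 units in N_WT, 0.27 in OGD_WT, 0.24 in N_KO and 0.28 in OGD_KO, against 0.24, 0.26, 0.25 and 0.27 over all genes. The widest spread was that of Sema6d in N_WT (0.63), Epha3 in OGD_WT and N_KO (0.66 and 0.70) and Nrp2 in OGD_KO (0.88).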

How the data were processed

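Total RNA was sequenced from 20 libraries with a stranded kit. The authors deposited log2 CPM values in 4 tables of 10 libraries, each scaled separately. Their build was mm10, per the submitters' processing notes, and the aligner and annotation are not given in the sources used here. In each group the deposited values of a gene were clipped at the 10th and 90th percentile, a step read from the values and not stated in the labels. The clipping was inverted (weights 0.6 and 0.4), after which at least 99.9% of values per library were whole counts within 0.05 (up to 500 counts), against 45.5% to 92.8% as deposited. These are called recovered counts.

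Each comparison was fitted on the unclipped log2 CPM over all genes of its table with limma 3.58.1 in R 4.3.3, with a trend and Benjamini-Hochberg adjustment, and called at an adjusted p under 0.05. Fold changes are on this log2 scale, which understates changes of low genes. The clipping, its inversion and the fit were also run on simulated independent libraries. These had no batch labels or paired cultures, so that run cannot speak to the batch structure of these data. The interaction used 13688 genes in all 4 tables, recovered counts, TMM scaling and a prior count of 2. The sums of marker and hypoxia-induced genes were taken on this scale. Levels per kilobase used the exon union of GENCODE genes. Exact permutation tests were two-sided. N and OGD libraries of a culture share a number and a batch label; the correlation of their deviations from the group means was between -0.68 and 0.08 over the 10 cultures.

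Genes given by library were called, did not overlap between groups, averaged 1 log2 CPM or more and were among the 7 largest rises or falls under OGD, or had 1 of the 3 smallest p by genotype; the 3 smallest interaction p were named too. The genes and lists were chosen with earlier results of these data known. Alternatives covered batches, the culture block, left-out replicates, scaling, filters, prior counts and the deposited values. The largest rises among the other guidance genes are not reported here.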

Additional observations from a re-analysis of the deposited data

Results flagged for a closer look

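In 3 of 60 groups of 5 libraries among the genes given by library, 1 library lay far from the others by Dixon's criterion, which chance alone meets in about 1 of 20 groups, or 3 of 60. Efna3 in N_KO replicate 4 had a log2 CPM of 2.92 in the table of the KO cultures, where the other N_KO libraries had 3.42 to 3.57. In the table that compares genotypes the same library had 3.07, where the others had 3.55 to 3.71. Plxnb2 in N_KO replicate 2 had 6.59, where the others had 6.30 to 6.38.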

How the results depend on the processing

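Guidance genes under OGD in WT, 6 higher and 21 lower with 6313 genes called in all, became 1, 8 and 2411 in batches 3.1 and 3.3 only (chosen after seeing the data), 1, 8 and 2303 there with the replicate block, and 3 higher and 35 lower when scaled to total counts. In KO, 6 higher, 18 lower and 5884 genes became 1, 7 and 2341 in batches 3.1 and 3.3 only, which are all its batch 3 cultures, 1, 6 and 1835 there with the replicate block, and 2 higher and 34 lower when scaled to total counts. The smaller set has fewer samples; the cause was otherwise not tested. With the replicate block over all cultures the counts were 6 higher and 24 lower with 5681 genes in WT, and 5 higher and 16 lower with 4829 genes in KO, and the report gives the calls this changed. Leaving out 1 replicate gave 4 to 7 higher, 17 to 25 lower and 5250 to 6635 genes in WT, and 4 to 7, 16 to 21 and 4908 to 5930 in KO.

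Genes called by genotype in normoxia, 5, became 2 in batch 3 cultures only, 11 with a batch covariate, 29 in batches 3.1 and 3.3 only, 9 from the deposited values, 3 at a mean log2 CPM of at least 1, 3 with the replicate block and 3 to 5 without 1 replicate. Under OGD, 4 became 17 with a batch covariate, 18 in batches 3.1 and 3.3 only, 12 from the deposited values, 1 with a prior count of 0.5, 2 with the replicate block and 1 to 7 without 1 replicate. The cause was not tested. No called value changed sign under these settings. Of the checks on single genes, 9 lost a call and 231 kept it in WT, and 19 lost and 221 kept it in KO, and the report names those genes. The planned edgeR and DESeq2 fits were not run, because the deposited unit is log2 CPM.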
